A study of Mus musculus with 4 samples.

Results

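The 9 PAX genes of the mouse, Pax1 to Pax9, were examined in retinal RNA from 3-week-old mice, as 9 of the 52636 genes of the deposited table. They were taken by name, and the family was picked because Pax7 was near absent in WT retina and above 100 normalized counts in Q344X retina. That difference chose the members, so the Q344X and WT values of all 9 are given as a description. Counts of members past a threshold stand beside the share of all genes past it and support nothing about the family. Q344X and WT were compared, with 2 libraries each. The Q344X libraries came from mutant retinas, and the Q344X change is one of those found in families with dominant retinitis pigmentosa, in which photoreceptors are lost. The WT libraries came from retinas of wild-type mice. The labels do not give the strain, the sex, the litter, the number of mutant copies or the way the allele was made. The series' design text gives 3 replicates per group at the start and 2 after removal of low-quality and outlying samples, while the protocol for RNA extraction speaks of 3 Q344X mice and 2 of WT.

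PAX proteins are transcription factors that bind DNA through a paired domain, encoded by the paired box. They set up organs and cell lineages in the embryo, and some are kept in adult stem cells and neurons. The family falls into subfamilies by the rest of the protein. Pax3 and Pax7 have a full homeodomain and act in neural crest and muscle. Pax2, Pax5 and Pax8 have a partial homeodomain and act in optic stalk, kidney, midbrain, thyroid and B cells. Pax4 and Pax6 have a full homeodomain and act in pancreas and eye, and Pax1 and Pax9, which lack one, act in the axial skeleton and pharynx. In the retina Pax6 is needed by progenitors and stays on in amacrine, horizontal and ganglion cells.

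The coding stretch that the members share most is shown first, because it is what makes them 1 family and because reads from near-identical copies could be credited to the wrong member. Among windows of 120 bases in the coding sequence of Pax7, the one printed had the highest mean identity to the other 8 members, and it lies in 1 coding exon of every member (GENCODE release M21, GRCm38, 5′ to 3′). Capitals mark bases that differ from Pax7 at the same position of the window.
Pax7 (chr4:139830228-139830347, minus strand): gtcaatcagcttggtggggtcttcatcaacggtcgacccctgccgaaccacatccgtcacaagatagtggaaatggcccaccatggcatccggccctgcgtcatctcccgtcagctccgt
Pax3 (chr1:78195341-78195460, minus strand): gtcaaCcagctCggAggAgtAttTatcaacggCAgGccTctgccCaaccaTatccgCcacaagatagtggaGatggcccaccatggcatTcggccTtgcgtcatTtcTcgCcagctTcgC
Pax2 (chr19:44760889-44761008, plus strand): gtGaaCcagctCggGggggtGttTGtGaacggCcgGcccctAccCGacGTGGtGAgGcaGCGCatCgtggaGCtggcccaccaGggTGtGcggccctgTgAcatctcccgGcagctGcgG
Pax5 (chr4:44697557-44697676, minus strand): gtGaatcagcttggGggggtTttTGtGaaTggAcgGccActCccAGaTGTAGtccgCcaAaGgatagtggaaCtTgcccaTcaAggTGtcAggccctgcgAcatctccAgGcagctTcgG
Pax8 (chr2:24444601-24444720, minus strand): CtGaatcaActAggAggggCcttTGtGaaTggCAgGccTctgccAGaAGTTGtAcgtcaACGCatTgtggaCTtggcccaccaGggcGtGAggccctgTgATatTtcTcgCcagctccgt
Pax6 (chr2:105683839-105683958, plus strand): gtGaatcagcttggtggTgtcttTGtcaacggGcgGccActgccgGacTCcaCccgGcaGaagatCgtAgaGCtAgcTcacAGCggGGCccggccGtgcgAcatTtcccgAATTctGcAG
The window of Pax3 differed from that of Pax7 at 21 positions, the fewest of the 8, and that of Pax4 at 49, the most. Identity to Pax7 was 82.5% for Pax3, 72.5% for Pax5, 70.8% for Pax6, 70.0% for Pax2 and 67.5% for Pax8. Pax2, Pax5 and Pax8 each had their highest identity within their own subfamily, at 78.3% for Pax2 with Pax5, 75.8% for Pax2 with Pax8 and 73.3% for Pax5 with Pax8. Despite this likeness, 0 of the 5858 words of 50 bases in the annotated Pax7 transcripts occurred in a transcript of any other gene on either strand. Of the Pax2 words 0 of 5496 were shared. Of the Pax5 and Pax8 words 7.02% and 4.43% were shared, all with annotated RNAs that overlap those genes and none with another PAX gene. No word of 50 bases in Pax7 thus occurred in Pax3.

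**Figure D1:**
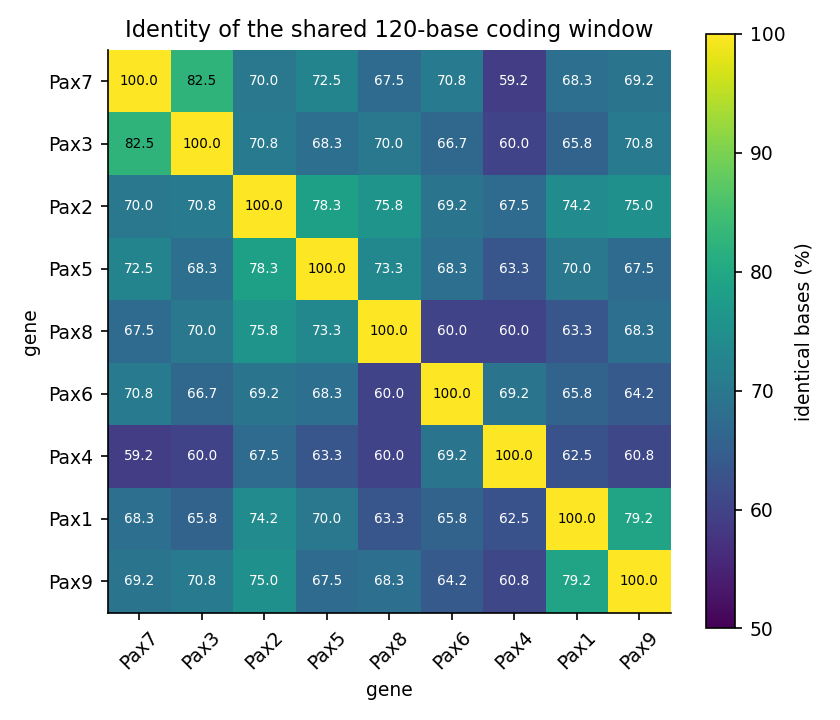
Percent of identical bases between each pair of PAX genes (both axes: genes, ordered by subfamily) in the 120-base coding window; colour runs from 50% to 100%. Pax7 and Pax3 share 82.5%, the highest value in the plot, and Pax1 and Pax9 share 79.2%.

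Depth was similar in all libraries. Reads in genes, recovered from the size-factor steps of the deposited values, came to 19034261 and 19346580 in Q344X replicates 1 and 2, and to 18452679 and 19706573 in WT replicates 1 and 2. Values are normalized counts, which are the authors' gene counts divided by a size factor per library, so that 1 read is worth 0.960 to 1.04. A count of 0 allows up to 3 reads, or 2.88 to 3.12 normalized counts, by counting error alone. Of 16833 genes with a mean of at least 10 over the 4 libraries, 919 were higher and 1531 lower in Q344X (limma, adjusted p under 0.05). Rod genes, which check the labelled tissue, were abundant in every library. The 12 lens and cornea genes summed to 252572 and 7189 in the Q344X libraries, against 243675 and 307334 in the WT libraries, so Q344X replicate 2 stood apart.

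Of the 9 members, 5 passed the minimum mean of 10, namely Pax2, Pax5, Pax6, Pax7 and Pax8. Pax1, Pax3 and Pax4 had 0 reads in all 4 libraries, and Pax9 had 1 read in Q344X replicate 2 and 1 in WT replicate 2. Pax7 and Pax2 passed only through the Q344X libraries, since their WT means were 2.02 and 7.69. In the fit over all genes, Pax7 and Pax2 (2 members) were past the threshold upward (limma), where 5.46% of all tested genes were, and 0 were past it downward, where 9.10% were. By edgeR on recovered reads 2 members were higher and 0 lower, where 5.11% and 9.26% of tested genes were, and 0 were lower at an unadjusted p under 0.05 (limma). In 4 members both Q344X libraries lay above both WT libraries, as they did in 31.4% of all tested genes, and groups without overlap in either direction were seen in 63.1%. Nothing is read from these counts or the shares beside them, because the family was chosen on the same contrast and Pax7 and Pax2 entered through the group where they are high.

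**Figure D2:**
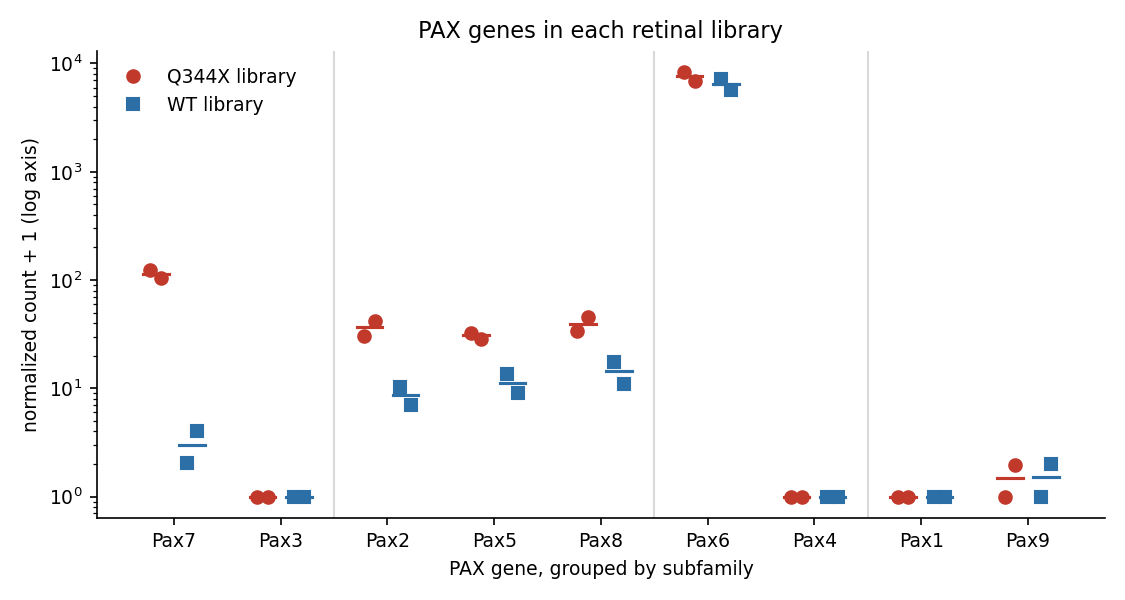
Normalized count plus 1 (log axis) of each PAX gene (horizontal axis, grouped by subfamily), with the 2 Q344X libraries as circles left of the 2 WT libraries as squares; bars are group means. Pax7 stands at 123 and 104 in Q344X against 1.04 and 3.01 in WT, Pax6 is far above the rest in all libraries, and Pax1, Pax3 and Pax4 are at 0.

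Pax7, which marks muscle satellite cells, neural crest and the dorsal midbrain, had 123 and 104 normalized counts in Q344X replicates 1 and 2, against 1.04 and 3.01 in WT replicates 1 and 2. Both Q344X libraries were far above both WT libraries, and the groups did not overlap. In reads these values were 124 and 108 in Q344X, against 1 and 3 in WT. The ratio of summed reads, corrected for the size factors, was 55.4 (95% exact interval 21.3 to 205, counting error only). On the log2(value + 1) scale the difference was 5.31 ± 0.47 (SE). It was the number 3 rise among all tested genes, a rank not independent of the choice of Pax7 on this contrast. With WT values this low, the size of that difference depends on the pseudocount, and it was 4.08 with 5 in place of 1. Pax7 lies on chromosome 4, 139737062 to 139833528, minus strand (ENSMUSG00000028736, GRCm38), and no other annotated gene of the table overlaps it. Retinal RNA was measured in bulk, so more cells with a transcript and more transcript per cell cannot be told apart.

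Pax3, the closest relative of Pax7 and a regulator of neural crest and embryonic muscle, was at 0 reads in every library. Within this subfamily the Q344X libraries therefore held Pax7 alone. Normalized per kilobase of annotated exon, Pax7 had 19.3 ± 2.30 in Q344X and 0.345 ± 0.237 in WT (SD, n = 2 each).

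The subfamily of Pax2, Pax5 and Pax8 was low in both genotypes, with all 3 members higher in both Q344X libraries than in either WT library. Pax2, a factor of the optic stalk and of astrocyte precursors of the optic nerve, had 29.7 and 41.3 normalized counts in Q344X replicates 1 and 2, against 9.36 and 6.02 in WT replicates 1 and 2. Its Q344X values did not overlap the WT values, and the log2 difference was 2.08 ± 0.43 (SE). Pax5, known for B cell commitment and for the midbrain-hindbrain boundary, had 31.7 and 27.8 in Q344X, against 12.5 and 8.02 in WT. Both Q344X libraries were the higher ones, with a log2 difference of 1.48 ± 0.41. Pax8, a factor of thyroid and kidney, had 32.7 and 44.2 in Q344X, against 16.6 and 10.03 in WT. Again the groups did not overlap, and the log2 difference was 1.48 ± 0.41.

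In GRCm38, Pax2 (ENSMUSG00000004231) lies on chromosome 19, 44756045 to 44837871, plus strand. Pax5 (ENSMUSG00000014030) lies on chromosome 4, 44524757 to 44710487, and Pax8 (ENSMUSG00000026976) on chromosome 2, 24420560 to 24475599, both on the minus strand. These 3 genes rest on few reads. Summed over the 2 libraries of a group, Pax2 had 73 reads in Q344X, against 15 in WT. Pax5 had 61 in Q344X, against 20 in WT, and Pax8 had 79 in Q344X, against 26 in WT. The ratio of reads was 4.65 for Pax2 (95% exact interval 2.64 to 8.72), 2.91 for Pax5 (1.73 to 5.09) and 2.90 for Pax8 (1.84 to 4.71), with intervals that cover counting error only. The intervals overlap, so no order among the 3 is given. The subfamily summed to 94.1 and 113 in the Q344X libraries, against 38.5 and 24.1 in the WT libraries. Among the 2458 tested genes of like abundance, with a mean of 10 to 30, both Q344X libraries lay above both WT libraries in 28.6%, and a log2 rise of at least 1 was seen in 17.0%, and 3.82% were past the threshold upward. These shares are given as background only.

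The sequence before the annotated start of these 3 genes is shown because all 3 had higher values in both Q344X libraries, although the family was chosen on this contrast. Each is the 250 bases before a RefSeq transcript start (GRCm38.p6, 5′ to 3′ on the strand of the gene), and capitals mark the GC box GGGCGG or its reverse complement. For Pax2, which has 3 such windows, the one shown lies outside annotated Pax2 exons and nearest to the annotated gene start.
Pax2 (chr19:44755502-44755751, plus strand): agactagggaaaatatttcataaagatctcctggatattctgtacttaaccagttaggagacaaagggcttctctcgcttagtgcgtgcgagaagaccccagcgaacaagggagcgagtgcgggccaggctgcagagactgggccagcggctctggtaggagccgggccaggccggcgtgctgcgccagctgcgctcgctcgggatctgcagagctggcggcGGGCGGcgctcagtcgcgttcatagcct
Pax5 (chr4:44710695-44710944, minus strand): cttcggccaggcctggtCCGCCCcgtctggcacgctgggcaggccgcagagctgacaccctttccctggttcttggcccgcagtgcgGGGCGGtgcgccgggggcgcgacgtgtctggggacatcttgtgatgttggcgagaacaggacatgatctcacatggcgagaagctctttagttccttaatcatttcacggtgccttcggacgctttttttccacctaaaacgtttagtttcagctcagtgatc
Pax8 (chr2:24475600-24475849, minus strand): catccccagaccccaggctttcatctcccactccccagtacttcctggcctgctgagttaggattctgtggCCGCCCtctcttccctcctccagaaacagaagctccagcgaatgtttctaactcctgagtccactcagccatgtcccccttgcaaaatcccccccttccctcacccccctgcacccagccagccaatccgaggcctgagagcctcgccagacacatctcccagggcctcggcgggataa
The letters GGGCGG occurred on either strand 1 time in the Pax2 window, 2 times in the Pax5 window and 1 time in the Pax8 window, and in 32.7% of all 32851 mouse promoter windows of the same length. The CCAAT box occurred 1 time in the Pax8 window and 0 times in those of Pax2 and Pax5 (33.8% of all windows). The E-box CANNTG occurred 1 time each in the Pax2 and Pax5 windows and 0 times in that of Pax8 (66.2% of all windows). Neither TATAAA (12.4% of all windows) nor the letters TAATCC bound by the photoreceptor factor CRX (6.25%) was in any of the 3, on either strand. GC content was 60.8% for Pax2, 58.8% for Pax5 and 60.4% for Pax8, against a median of 52.4% over all windows. The window of Pax7, which overlaps an annotated exon and is not printed, had 65.2% GC with 1 GC box and none of the other letters. These matches describe letters and do not show binding.

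Pax6, the eye regulator that amacrine, horizontal and ganglion cells keep, held nearly all PAX reads. The gene (ENSMUSG00000027168) lies on chromosome 2, 105668900 to 105697364, plus strand. It had 8349 and 6903 normalized counts in Q344X replicates 1 and 2, against 7201 and 5631 in WT replicates 1 and 2. The groups overlapped, since Q344X replicate 2 lay below WT replicate 1. Means were 7626 ± 1022 in Q344X and 6416 ± 1110 in WT (SD, n = 2 each), and the log2 difference of 0.25 ± 0.21 (SE) was within the spread between libraries. Pax6 made up 97.5% and 96.9% of the summed PAX values in the Q344X libraries, against 99.5% and 99.5% in the WT libraries. Without Pax6, the remaining members summed to 217 and 218 in Q344X, against 39.5 and 28.1 in WT. The lens also expresses Pax6, and its genes summed to 7189 in Q344X replicate 2, against 243675 or more in the other libraries. WT replicate 2, with the lowest Pax6 value, had the highest lens sum, 307334. The log2 difference of Pax6 was 0.39 without Q344X replicate 2 and 0.12 without Q344X replicate 1. It was 0.43 without WT replicate 1 and 0.08 without WT replicate 2. The part of lens RNA in the Pax6 values was not tested.

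Per kilobase of annotated exon, the order of levels in Q344X was Pax6, Pax7, Pax2, Pax8 and Pax5, with normalized counts per kilobase of 652 ± 87.4, 19.3 ± 2.30, 6.56 ± 1.51, 6.34 ± 1.34 and 3.36 ± 0.307 (SD, n = 2). Pax2 and Pax8 did not differ beyond their spread. In WT the order was Pax6, Pax8, Pax2, Pax5 and Pax7, with 549 ± 94.9, 2.20 ± 0.772, 1.42 ± 0.437, 1.158 ± 0.356 and 0.345 ± 0.237. There, Pax8, Pax2 and Pax5 followed each other within their spread. Pax7 thus came directly after Pax6 in Q344X and last of the 5 in WT.

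Pax6os1, an RNA annotated on the opposite strand of Pax6 with its start 1.43 kb inside that gene, is not a PAX gene but overlaps one. It had 176 and 219 normalized counts in Q344X replicates 1 and 2, against 82.2 and 75.2 in WT replicates 1 and 2. The groups did not overlap, and it rose by a log2 change of 1.31 ± 0.23 (SE, limma adjusted p = 0.0243, but 0.0676 without WT replicate 2). Whether the counting used strand is not known here, so reads of Pax6 and Pax6os1 may not be told apart. Paupar, a noncoding RNA 7.56 kb upstream of Pax6, had 69.3 and 74.9 in Q344X, against 54.1 and 49.1 in WT, and did not pass (0.47 ± 0.26, adjusted p = 0.245).

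Genes beside the PAX genes on the chromosomes were examined to see whether a member moved with its surroundings. Of 72 tested genes within 500 kb of a PAX gene, 4 were higher and 10 lower in Q344X (limma), or 5.56% and 13.9%, where 5.46% and 9.10% of all tested genes were. Around Pax7, 1 of 13 tested genes was higher and 3 were lower, and the median log2 difference was -0.28. The nearest on either side were Aldh4a1, a proline-pathway dehydrogenase, with -0.48 ± 0.19 (SE), not past the threshold, and Klhdc7a, which fell by 1.47 (adjusted p = 0.0309, but 0.153 without WT replicate 2 and 0.0510 under quantile normalization). Gm13027, an antisense RNA whose strand is uncertain here, fell by 2.71 (adjusted p = 0.00532), and Ubr4, a ubiquitin ligase, fell by 0.95 (adjusted p = 0.0275, but 0.145 and 0.1001 without WT replicate 1 or 2). Mrto4, a ribosome assembly gene, rose by 0.80 (adjusted p = 0.0498, but 0.0889, 0.296 and 0.183 without Q344X replicate 2, WT replicate 1 or WT replicate 2, 0.0552 after 75th percentile scaling and 0.0514 by edgeR). Igsf21, 193 kb away, had 863 and 1739 in Q344X, against 319 and 610 in WT. Its groups did not overlap, and it did not pass (1.47 ± 0.43, adjusted p = 0.0728). The log2 difference of Igsf21 was 1.98 without Q344X replicate 1 and 0.97 without Q344X replicate 2. It was 1.01 without WT replicate 1 and 1.94 without WT replicate 2.

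Around Pax2, 1 of 14 tested genes was higher, the semaphorin Sema4g (log2 1.13 ± 0.20, SE, adjusted p = 0.0232, but 0.0533 and 0.0684 without WT replicate 1 or 2), and 1 was lower, Pdzd7, a scaffold gene of photoreceptor and hair cells (-1.83 ± 0.36, adjusted p = 0.0284, but 0.106 without WT replicate 2). Around Pax5, 0 of 11 were higher and Frmpd1 was lower (-1.28 ± 0.19, adjusted p = 0.0152, but 0.0622 without WT replicate 2). The nearest tested gene to Pax5, Zcchc7, had -0.76 ± 0.44 and did not pass. Around Pax8, none of 9 passed, and its nearest neighbours Psd4 and Cacna1b had 0.08 ± 0.28 and 0.38 ± 0.23. Beside Pax6, Elp4, an Elongator subunit gene with Pax6 enhancers in its introns, had 0.40 ± 0.21 and Rcn1 fell by 0.71 (adjusted p = 0.0466, but 0.332 and 0.251 without WT replicate 1 or 2, and 0.0664 without Q344X replicate 2).

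**Figure D3:**
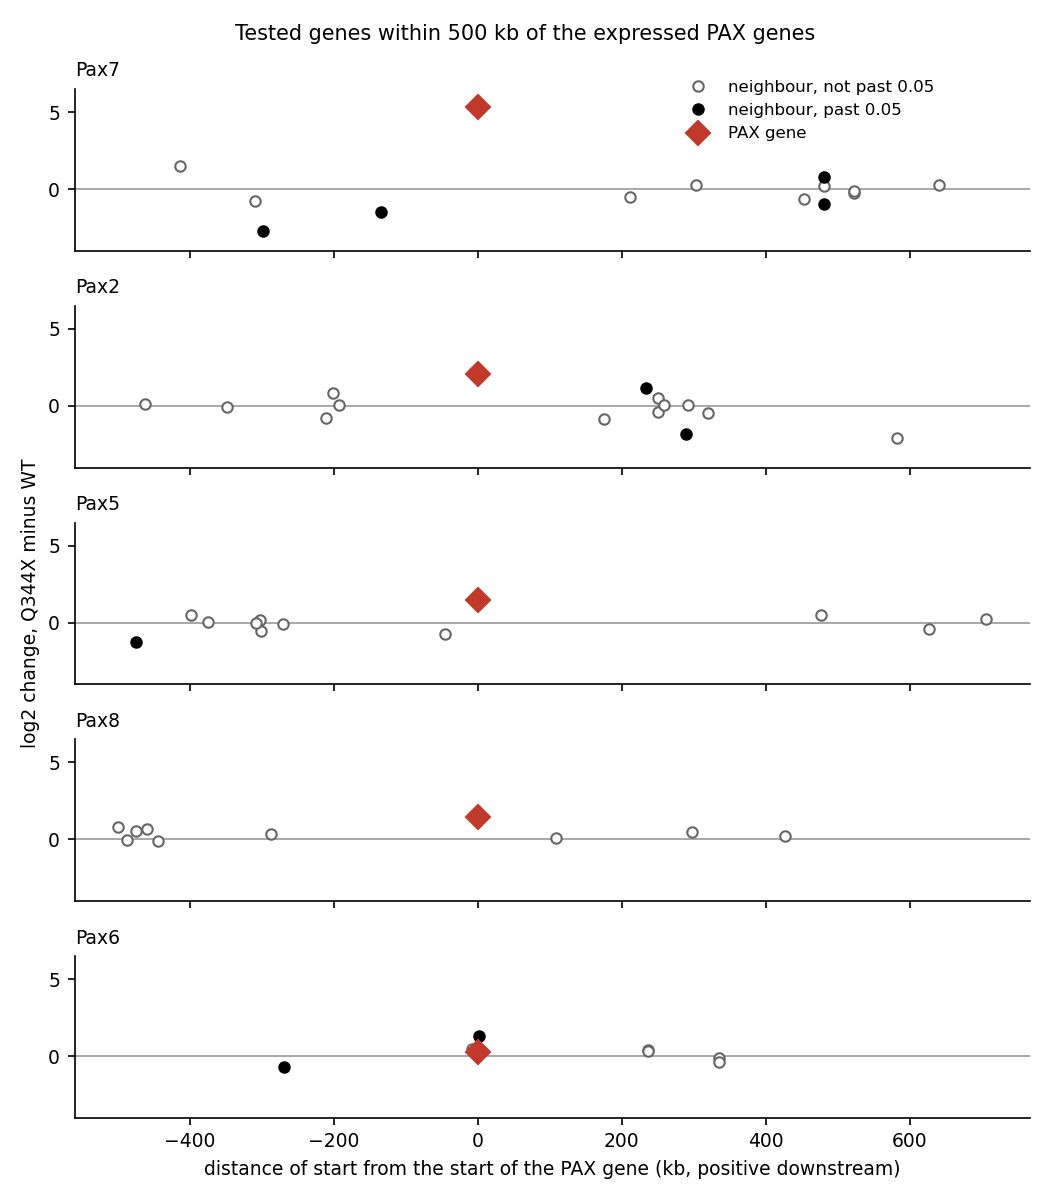
Log2 difference, Q344X minus WT (vertical axis), of tested genes within 500 kb of 5 PAX genes, against the distance of their start from the start of the PAX gene in kb (horizontal axis); filled points are past an adjusted p of 0.05 (limma) and diamonds are the PAX genes. The diamond of Pax7 at 5.31 stands above all its neighbours, 3 of which are filled below 0.

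Genes that work with PAX proteins were counted from lists, and no list was tested as a set. Over all tested genes 5.46% were higher and 9.10% lower (limma). Proteins of the sine oculis homeobox, EYA and DACH families, which form a network with PAX proteins in muscle, kidney and ear, had 0 of 10 genes past the threshold in either direction (limma), with 1 higher and 1 lower at an unadjusted p under 0.05 and 0 by edgeR. Their median log2 difference was -0.06, beside 0.02 over all tested genes. Dach1, a corepressor gene, had 1260 and 1890 in Q344X, against 933 and 1244 in WT, and Eya3, a coactivator gene, had 1501 and 1293, against 892 and 776. The groups did not overlap in either gene, and neither passed (Dach1 adjusted p = 0.223, Eya3 0.0512). The log2 difference was 0.85 for Eya3 without Q344X replicate 2 and 0.81 for Dach1 without Q344X replicate 1.

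Of 17 tested cofactors of PAX proteins, 1 rose, 1 fell and 15 did not pass (median 0.14). Each direction was 5.88% of them, beside 5.46% higher and 9.10% lower over all tested genes. Tle1, a Groucho corepressor recruited by PAX proteins, rose by a log2 change of 0.97 ± 0.19 (SE), with 1065 and 1333 in Q344X, against 609 and 603 in WT. Kmt2d, the histone methyltransferase that PAX proteins reach through Paxip1, fell by 0.86, with 4110 and 3538 in Q344X, against 7027 and 6791 in WT. Both changes were past the threshold with all libraries (adjusted p = 0.0294 and 0.0319) and not without WT replicate 1 (0.115 and 0.191) or WT replicate 2 (0.122 and 0.150). Paxip1 itself had 1000 and 956 in Q344X, against 932 and 968 in WT, with overlapping groups and a log2 difference of 0.04 ± 0.17.

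Eye field and retinal progenitor factors, many of which act with Pax6, had 1 of 13 higher and 1 lower (median 0.29). Each direction was 7.69% of them, beside 5.46% higher and 9.10% lower over all tested genes. Mitf, the pigment cell factor, had 99.99 and 97.9 in Q344X, against 196 and 181 in WT, and fell by 0.92 (adjusted p = 0.0412, but 0.259 and 0.171 without WT replicate 1 or 2, and 0.0704 under quantile normalization). Otx2 and Rax, photoreceptor and eye field factors, had log2 differences of 0.58 and 0.29 and did not pass.

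Among genes of the amacrine, horizontal and ganglion cells that keep Pax6, 5 of 25 rose and 1 fell, or 20% and 4%, where 5.46% and 9.10% of all tested genes did. The 1 that fell was Slc6a9, the glycine transporter of glycinergic amacrine cells, by 0.70 (adjusted p = 0.0476, but 0.0712, 0.293 and 0.284 without Q344X replicate 2, WT replicate 1 or WT replicate 2). The list median was 0.53. Isl1, a LIM factor, rose by 1.60, with 5368 and 4553 in Q344X, against 1967 and 1358 in WT (adjusted p = 0.0153). Isl2, a ganglion cell factor, rose by 1.58 (adjusted p = 0.0319). Neurod6, an amacrine factor, rose by 1.79 (adjusted p = 0.0464, but 0.144 without WT replicate 1), and Sncg, a ganglion cell synuclein, by 1.11 (0.0392, but 0.126 without WT replicate 1). Without WT replicate 1 the list had 2 genes higher, and without Q344X replicate 1 it had 12. Ebf3, a transcription factor gene, rose by 0.73 (adjusted p = 0.0428, but 0.310 and 0.2502 without WT replicate 1 or 2). Genes of the list that did not pass went either way. Log2 differences were -0.78 for Chat, which makes acetylcholine, and -0.23 and -0.18 for Gad2 and Gad1, which make GABA. They were 0.53 for Tfap2b, 0.60 for Tfap2c and 0.70 for Calb2, each higher in both Q344X libraries than in either WT library.

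Cell types outside the retina that use Pax7 were looked for by their markers. Of 14 satellite cell and myogenic genes 8 were too low to test. Among those tested 16.7% rose and 0% fell, where 5.46% and 9.10% of all tested genes did. Myf5 had 0 and 1.92 in Q344X, against 1.04 and 0 in WT. Myod1 had 0 and 0, against 1.04 and 0, and Myog had 4.95 and 1.92, against 0 and 0. These 3 myogenic factors were low in all 4 libraries, with Myog higher in both Q344X libraries. Myf6, another of them, had 0 and 0.960 in Q344X, against 18.7 and 9.02 in WT, and was lower in both Q344X libraries. Cdh15, the M-cadherin of satellite cells, had 13.9 and 19.2 in Q344X, against 7.28 and 6.02 in WT. Itga7, a laminin-binding integrin, had 165 and 173 in Q344X, against 105 and 110 in WT. Both were higher in both Q344X libraries, and neither passed (log2 1.18 ± 0.46 and 0.65 ± 0.21, SE, adjusted p = 0.134 and 0.0915). Of the 6 tested, 1 rose, the Notch target Heyl, by 1.33 (adjusted p = 0.0312, but 0.0502, 0.0668 and 0.0977 without Q344X replicate 2, WT replicate 1 or WT replicate 2). Summed over the 14, the list had 1332 and 1703 in Q344X, against 1843 and 1892 in WT. Most of that sum was Sdc4, a syndecan of many tissues, with 910 and 1086 in Q344X, against 1509 and 1505 in WT. Without it the other 13 genes summed to 422 and 616 in Q344X, against 334 and 387 in WT, so the order of the groups turned round. Leaving out Sdc4 was a choice made after the values were seen. Most of the remaining sum was Spry1, Itga7 and Heyl. Spry1 had 142 and 297 in Q344X, against 140 and 205 in WT, with overlapping groups. Calcr, with 2.97 and 0 in Q344X, against 4.16 and 3.01 in WT, and Mymk were lower in both Q344X libraries and too low to test. The part of such cells in the Pax7 values was not tested.

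Skeletal muscle genes would mark eye muscle in the dissection. Over 12 genes they summed to 150 and 129 in Q344X, against 212 and 154 in WT. Mylpf had 24.8 and 22.1 in Q344X, against 69.7 and 61.2 in WT, and Ttn had 23.8 and 17.3, against 64.5 and 36.1. Acta1 went the other way, with 46.5 and 55.7 in Q344X, against 26.0 and 36.1 in WT (log2 0.71 ± 0.32, SE). Myh1, too low to test, was also higher in both Q344X libraries. Ttn and Acta1 did not pass. Among the tested genes of this list 0% rose and 25% fell, where 5.46% and 9.10% of all tested genes did. Of 4 tested, 1 fell, the myosin light chain Mylpf (-1.44 ± 0.30, SE, adjusted p = 0.0316, but 0.140 and 0.0835 without WT replicate 1 or 2). Of 11 tested neural crest and melanocyte genes, 2 rose and 1 fell, or 18.2% and 9.09% (median 0.32). Over all tested genes these shares were 5.46% and 9.10%. Foxd3, a defining factor of neural crest, was at 0 in all 4 libraries, and Sox10 had 11.9 and 14.4 in Q344X, against 8.32 and 9.02 in WT. The 2 that rose were Pmel and Tyr, both pigment genes, Pmel by 1.53 (adjusted p = 0.0159) and Tyr by 1.04 (0.0405, but 0.0696, 0.199 and 0.106 without Q344X replicate 2, WT replicate 1 or WT replicate 2). Other pigment genes of the list did not pass. Tyrp1 had 219 and 221 in Q344X, against 318 and 338 in WT (-0.58 ± 0.19, SE, adjusted p = 0.0922), and was lower in both Q344X libraries. Mlana overlapped between groups (0.28 ± 0.48), and Dct had 0.32 ± 0.20. Ednrb, an endothelin receptor gene also made by glia, fell by 1.39 (adjusted p = 0.0146). The 14 genes summed to 2726 and 2859 in Q344X, against 2196 and 2454 in WT, and the part of pigment cells in the PAX values was not tested.

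Cell types that use the other members were checked in the same way. The shares over all tested genes, 5.46% higher and 9.10% lower, stand beside each of these counts. For Pax2, 0 of 6 tested optic stalk and astrocyte genes rose (also 0 at an unadjusted p under 0.05 and 0 by edgeR) and Aqp4, a water channel of glia, fell by 1.004 (adjusted p = 0.0294, but 0.148 and 0.0721 without WT replicate 1 or 2). Vax1, a factor of the optic stalk, had 2.97 and 5.76 in Q344X, against 1.04 and 0 in WT, too low to test. Gfap, the astrocyte filament gene, had 845 and 835 in Q344X, against 1141 and 952 in WT, and did not pass (-0.31 ± 0.18, SE). S100b was higher in both Q344X libraries, with 268 and 385, against 210 and 250 in WT (0.49 ± 0.25). Pdgfra had 0.21 ± 0.21 with overlapping groups, and neither passed. The list summed to 8508 and 7210 in Q344X, against 12445 and 11063 in WT. The largest part of that sum was Slc1a2, with 4756 and 3832 in Q344X, against 7321 and 6637 in WT.

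For Pax5, 8 of 10 B cell genes were too low to test. Blk was at 0 in all 4 libraries, Ms4a1 at 0 and 0 in Q344X, against 0 and 1.003 in WT, and Cd79a at 0 and 0, against 3.12 and 0. Of the 2 tested, Ebf1, which retinal neurons also express, had 0.64 ± 0.17 and Cr2, a complement receptor gene, 2.13 ± 0.73, and neither passed (limma, adjusted p = 0.0609 and 0.101; 2 higher at an unadjusted p under 0.05, 0 by edgeR). The log2 difference of Cr2 was 2.48 without Q344X replicate 2 and 3.10 without WT replicate 1. The 10 genes summed to 836 and 789 in Q344X, against 525 and 500 in WT, nearly all of it Ebf1.

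For Pax8, the thyroid and kidney list had Wt1, Umod and Nkx2-1 at 0 in all 4 libraries. Of 4 tested, none rose (1 at an unadjusted p under 0.05, 0 by edgeR) and 1 fell, where 5.46% and 9.10% of all tested genes did. The list summed to 352 and 303 in Q344X, against 379 and 321 in WT. For Pax4, itself at 0 reads, the islet gene Nkx2-2 was at 0 throughout, and of 5 tested islet genes Isl1 alone passed. Tests of lens and cornea genes gave 0 of 12 past the threshold (limma, 0 also at an unadjusted p under 0.05 and by edgeR), and the Q344X libraries differed from each other, with Cryaa, a lens crystallin gene, at 100435 and 3726 in Q344X, against 115632 and 122014 in WT. The log2 difference of Cryaa was -4.99 without Q344X replicate 1 and -2.66 without WT replicate 1. Of 11 rod genes 3 fell, or 27.3%, where 9.10% of all tested genes did. Among them was Gnat1, rod transducin (-2.31 ± 0.20, SE, limma adjusted p = 0.00532). The rod list summed to 415197 and 472763 in Q344X, against 1027379 and 1172736 in WT. A change in cell makeup thus cannot be told apart from change per cell.

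**Figure D4:**
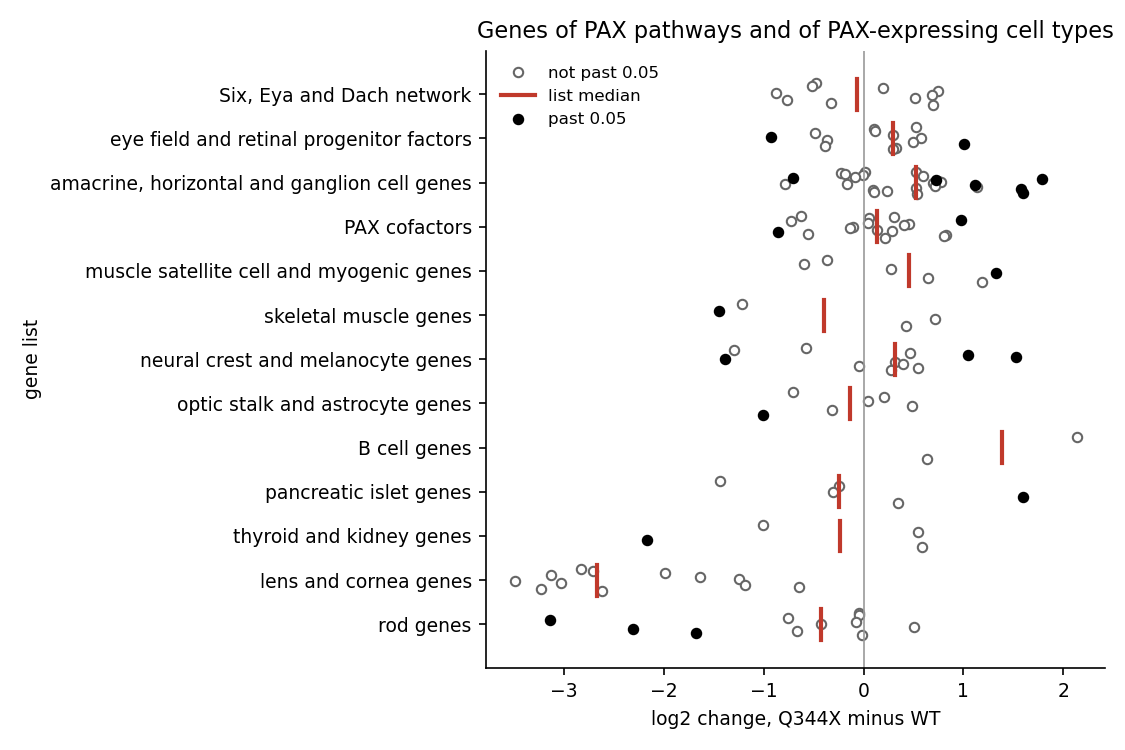
Log2 difference, Q344X minus WT (horizontal axis), of each tested gene in 13 lists of PAX partners and of cell types (vertical axis); filled points are past an adjusted p of 0.05 (limma) and red bars are list medians. The amacrine, horizontal and ganglion cell list has 5 filled points above 0, and the lens and cornea list has the lowest median, -2.66.

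The genes whose pattern over the 4 libraries lay nearest to that of Pax7, by Euclidean distance between log2(value + 1) values centred on each gene, were Hao1, H1foo, Klf17, Prss33 and Npcd, at distances of 0.277, 0.818, 1.01, 1.01 and 1.12. Hao1, a peroxisomal oxidase gene of liver, had 47.5 and 48.0 in Q344X, against 0 and 1.003 in WT. Klf17, a zinc-finger factor of germ cells and early embryo, had 25.7 and 44.2 in Q344X, against 0 and 0 in WT. Hao1 and Klf17, like Pax7, thus had WT levels near 0, and the likeness over 4 libraries in 2 groups describes these libraries only. Nearest to Pax6 were Farp1, Slc26a8, Phf21a, Epha3 and Rab32, at distances of 0.0167 to 0.0502, and like Pax6 none of them passed the threshold.

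The size of the PAX differences under other settings is plotted for the 5 members that passed the minimum mean. Pax7 lay between 4.08 and 5.80, Pax2 between 1.67 and 2.36, Pax5 between 1.19 and 1.77 and Pax8 between 1.14 and 1.82. Pax6 lay between 0.08 and 0.43, so that each of the 5 was above 0 in every setting that gave a value. That sign is described for these settings and is not independent of the choice of the family.

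**Figure D5:**
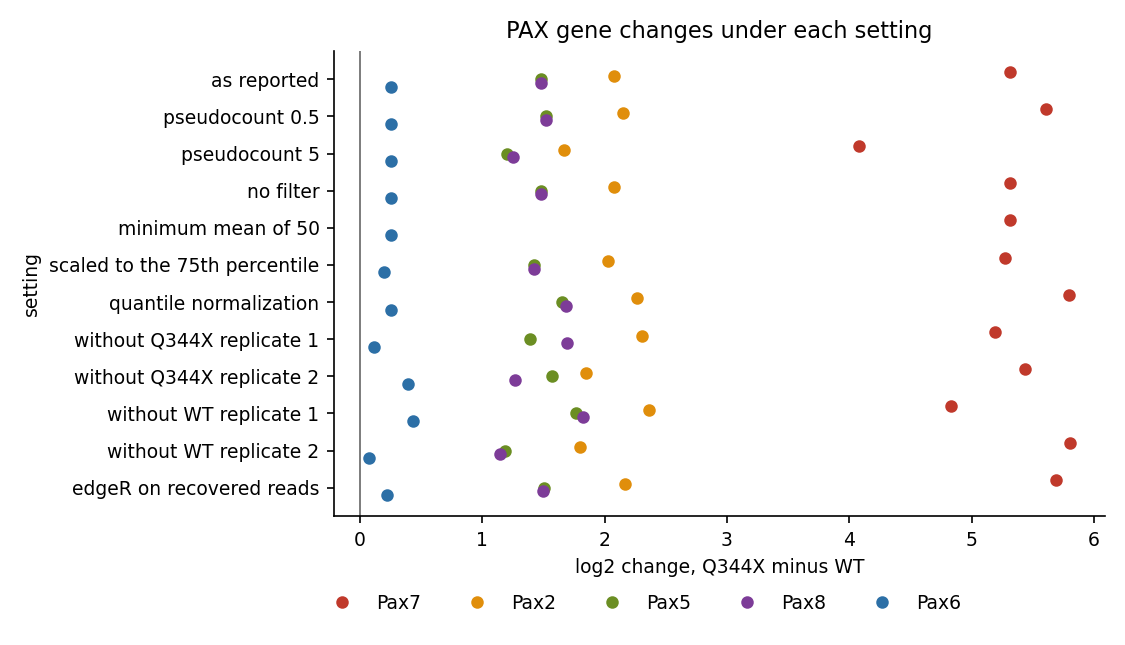
Log2 difference, Q344X minus WT (horizontal axis), of 5 PAX genes under each setting (vertical axis), 1 point per gene and setting. Pax7 stays above 4, Pax2, Pax5 and Pax8 lie between 1.14 and 2.36 and Pax6 lies between 0.08 and 0.43; Pax2, Pax5 and Pax8 have no point at a minimum mean of 50.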

How the data were processed

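RNA of whole retina was measured by RNA sequencing in 2 Q344X and 2 WT libraries. Per the labels' protocols, RNA was purified with RNeasy columns, selected for polyadenylated RNA and made into libraries with a NEBNext Directional kit for an Illumina HiSeq instrument. Per the submitters' processing notes, the build was mm10 and the tools included STAR, featureCounts, DESeq2 1.16.1, FastQC and Trim Galore 0.4.4, with no roles stated. The sources used here do not name the annotation, nor whether counting used strand. Values in the deposited file are a signal, namely the authors' gene counts after division by 1 size factor per library. In each library 100% of values above 0 lay within 0.1 of a whole number of reads, with size factors of 1.01, 1.04, 0.962 and 0.997 for Q344X replicates 1 and 2 and WT replicates 1 and 2. For Q344X replicate 1 and WT replicate 2, where 1 read is worth close to 1, this did not pass an automatic unit check.

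Genes were named by Ensembl identifier from GENCODE M21 on GRCm38, the assembly also called mm10 (52403 of 52636 matched). Differences are Q344X minus WT from limma 3.58.1 in R 4.3.3, fitted to log2(normalized count + 1) with a mean-variance trend over 16833 genes with a mean of at least 10, with two-sided Benjamini-Hochberg adjusted p-values and a threshold of 0.05. This scale understates changes of low genes. The fit has 2 residual and 3.90 prior degrees of freedom, and it was tested on simulated data. A permutation test of 2 against 2 libraries cannot go below p = 0.333. The p-values measure the spread between libraries, which may be technical. Reads recovered from the values were also tested with edgeR 4.0.16, an alternative chosen after seeing the data. The fit was repeated without each library in turn, after quantile normalization or scaling by the 75th percentile, without a filter, with a stricter minimum mean (50) and with pseudocounts of 0.5 and 5. Leaving out a library left 1 library in its group, so the p-values of those fits hold no spread within that group. Calls gained or lost in them are a description only. Motif searches used RefSeq promoter windows (GRCm38.p6), which were found for all members but Pax3 and Pax4.

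The members and the 13 gene lists were chosen with earlier results of these data known. In each list up to 4 genes were named, by size of change among those past the threshold and then by abundance. Beside each PAX gene the nearest tested genes and up to 3 past the threshold were named. Other list members were named after their values were seen, and some genes that the rule picks are not reported here.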

Additional observations from a re-analysis of the deposited data

How the results depend on the processing

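Settings moved counts of calls more than the PAX values. With no filter, 153 genes were higher and 383 lower, listed genes 0 and 3, genes beside PAX genes 0 and 1, and 1 PAX gene, Pax7, was past the threshold upward. A minimum mean of 50 left 1 PAX gene past it, Pax7, since Pax2, Pax5 and Pax8 were no longer tested, and quantile normalization put 4 past it, all but Pax6. With a pseudocount of 5 the log2 difference was 4.08 for Pax7 and 1.67 for Pax2. Genes beside PAX genes that were higher numbered 2 after 75th percentile scaling and 2 by edgeR, against 4 as reported. Leaving out 1 library gave 555 to 2388 higher and 904 to 3045 lower genes, 4 to 27 and 6 to 29 listed genes, 1 to 12 and 5 to 14 genes beside PAX genes, and 1 to 3 PAX genes upward. Each of the upper ends came without Q344X replicate 1 (3 PAX genes also without WT replicate 1). The 0 PAX genes past the threshold downward stayed 0 in all settings, and counts of PAX genes are a description, since the family was chosen on this contrast. No value of a PAX gene or of a gene named by the rule that was past the threshold changed sign. Sign changes among the other genes were not examined. Of 31 named genes past the threshold, 27 lost it with no filter, 16 without WT replicate 1, 17 without WT replicate 2, 3 without Q344X replicate 2 and 0 without Q344X replicate 1. The causes were not tested. A fit without 1 library has 1 library left in that group, so its p-values and counts of calls hold no spread for that group. No paired analysis was possible because the labels carry no replicate numbers that link the groups. Depth limits Pax2, Pax5 and Pax8, with 15 to 26 reads in WT.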
